A study of Mus musculus with 32 samples.

Results

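The regions described here were H3K27me3 peaks that both libraries of doubly modified mouse progenitors held and that no CSF3R or control library held. They were the autosomal peaks of the first double library that overlapped a peak of the second double library, by at least 1 bp, and no peak of the 3 CSF3R or the 2 control libraries. Of 16850 autosomal peaks in the first double library, 8772 overlapped the second, and 963 of these (11.0%) met the rule and are called members. The remaining 7809, which also overlapped a CSF3R or control peak, are called the other shared regions. The 10 H3K27me3 libraries of the series held 181000 peaks in all. The H3K27me3 peaks of the double, CSF3R and control libraries chose the members, so their presence or absence in those libraries is a description with no test.

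The cells were an immortalised bone marrow line named HoxB8, kept dividing by estrogen with stem cell factor in the medium and sampled after estrogen had been removed for 48 h. Double cells (sgB2/T, 2 libraries per mark) carried the Asxl1 guide B2 and the vector pMICH-CSF3R-T618I. Asxl1 guide cells (sgB2/E, 3 libraries) carried the same guide with pMICH-Empty, CSF3R cells (sgNT/T, 3 libraries) carried a non-targeting guide with pMICH-CSF3R-T618I, and control cells (sgNT/E, 2 libraries) carried the non-targeting guide with pMICH-Empty. All groups shared the HoxB8 background and the estrogen removal, and each mark (H3K27me3, H2AK119ub and H3K4me1) was profiled by CUT&Tag, in which an antibody-tethered transposase cuts DNA beside the mark. No label says that the libraries of a group came from separate cultures or clones, so p-values measure the spread between libraries, which may be technical. The deposited peak lists hold no value that checks the edit at Asxl1 or the level of CSF3R.

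H3K27me3 is deposited by Polycomb repressive complex 2 and H2AK119ub by Polycomb repressive complex 1, and both mark silent developmental genes. ASXL1 is a partner of the deubiquitinase BAP1, which removes ubiquitin from H2AK119, and truncating ASXL1 mutations are found in myeloid neoplasms. CSF3R T618I is an activating mutation of the granulocyte colony-stimulating factor receptor known from chronic neutrophilic leukaemia. H3K4me1 marks enhancers and the flanks of promoters.

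A few members lay on gene starts, and the 250 bases upstream of 6 of those genes are shown because the results below return to them. The sequences are RefSeq's for GRCm38.p6, the assembly behind mm10, written 5′ to 3′ on the gene's strand, with every CpG dinucleotide in capitals. Nab1 encodes a corepressor of EGR transcription factors, and its window was chr1:52500449-52500698 on the minus strand. Dusp6, a phosphatase that switches off ERK (chr10:99262981-99263230), and Spry1, a feedback inhibitor of receptor tyrosine kinase signalling (chr3:37639697-37639946), are on the plus strand. Glcci1, a glucocorticoid-induced gene (chr6:8509350-8509599), Kit, the receptor of stem cell factor (chr5:75574737-75574986), and Mmp8, neutrophil collagenase (chr9:7558179-7558428), are also on the plus strand.
Nab1: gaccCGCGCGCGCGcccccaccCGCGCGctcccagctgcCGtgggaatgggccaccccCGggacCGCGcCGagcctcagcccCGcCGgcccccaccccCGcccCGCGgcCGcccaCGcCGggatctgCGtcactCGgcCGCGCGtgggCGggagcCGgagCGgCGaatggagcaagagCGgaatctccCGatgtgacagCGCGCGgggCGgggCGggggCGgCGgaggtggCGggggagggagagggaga
Dusp6: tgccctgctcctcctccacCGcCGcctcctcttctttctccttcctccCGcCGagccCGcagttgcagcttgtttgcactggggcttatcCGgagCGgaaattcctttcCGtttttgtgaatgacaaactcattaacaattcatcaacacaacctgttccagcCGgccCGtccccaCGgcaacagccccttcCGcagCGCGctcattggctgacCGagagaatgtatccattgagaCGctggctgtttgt
Spry1: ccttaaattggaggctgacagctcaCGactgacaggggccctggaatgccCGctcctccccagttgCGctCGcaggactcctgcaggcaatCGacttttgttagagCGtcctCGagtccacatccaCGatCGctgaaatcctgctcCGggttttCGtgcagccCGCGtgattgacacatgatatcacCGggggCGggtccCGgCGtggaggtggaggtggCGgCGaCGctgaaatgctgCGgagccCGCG
Glcci1: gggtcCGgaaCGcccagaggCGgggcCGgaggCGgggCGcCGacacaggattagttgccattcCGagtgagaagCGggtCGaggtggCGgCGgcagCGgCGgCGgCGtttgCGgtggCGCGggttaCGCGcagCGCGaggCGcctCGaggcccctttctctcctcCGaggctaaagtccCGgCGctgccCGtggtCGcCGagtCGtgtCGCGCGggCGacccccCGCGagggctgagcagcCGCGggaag
Kit: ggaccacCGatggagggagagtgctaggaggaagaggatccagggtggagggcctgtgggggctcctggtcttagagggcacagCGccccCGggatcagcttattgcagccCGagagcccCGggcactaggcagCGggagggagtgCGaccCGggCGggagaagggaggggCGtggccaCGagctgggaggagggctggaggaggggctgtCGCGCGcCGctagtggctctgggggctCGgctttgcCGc
Mmp8: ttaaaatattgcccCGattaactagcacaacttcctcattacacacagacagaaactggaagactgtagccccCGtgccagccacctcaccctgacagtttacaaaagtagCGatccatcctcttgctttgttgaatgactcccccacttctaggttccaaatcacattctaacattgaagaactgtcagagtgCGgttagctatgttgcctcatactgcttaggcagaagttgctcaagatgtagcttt
Nab1 and Glcci1 each hold 40 CpG, Spry1 23, Kit 17, Dusp6 16 and Mmp8 4. CpG was the only motif counted, and it reads the same on both strands. The start site lay inside the member for all of these genes except Kit, whose member began 14 bp inside the gene.

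Libraries stood apart in 2 ways that touch these regions. Chromosome 1 held 261 members (27.1%), against 9.99% of the other shared regions and 6.06% of the mirrored regions. It also held a larger share of the autosomal peaks in all libraries with the Asxl1 guide than in all libraries with the non-targeting guide, with no overlap in any mark. The range was 10.7 to 11.9% in guide libraries and 5.44 to 5.88% in non-targeting libraries for H2AK119ub, and 8.23 to 8.60% and 6.87 to 7.19% for H3K4me1 (exact 2-sided permutation test within CSF3R status, p = 0.01 for each mark, the smallest its 100 arrangements allow, and 0.01 after Benjamini-Hochberg adjustment over the 2 marks). For H3K27me3 it was 10.9 to 14.0% and 5.87 to 6.33%, with no test since the rule used this mark. Chromosome 1 was picked after the data were seen, and the p-values of the other 2 marks were not adjusted over the autosomes. No conclusion is drawn from them. The merged IgG list, from 1 Asxl1 guide and 1 CSF3R library, had 9.81% of its autosomal peaks on chromosome 1. Copy number was not measured, and its part in these shares was not tested. Peak lists also differed in length, with Asxl1 guide library 2 covering 53.0 Mb with H3K27me3 and Asxl1 guide library 1 covering 4.73 Mb, and with double library 1 covering 39.1 Mb with H2AK119ub. Of 10 myeloid progenitor markers, 7 to 9 had an H3K4me1 peak within 5 kb in every library (9 in both double libraries). None of the T cell or fibroblast markers (4 each) had one in any library. Other cell types were not empty: of 4 platelet markers 2 to 4 had one per library, and of 4 macrophage markers 1 or 2. Of 4 erythroid markers 0 to 2 had one, of 4 B cell markers 0 or 1 and of 3 mast cell markers 1 or 2.

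**Figure D1:**
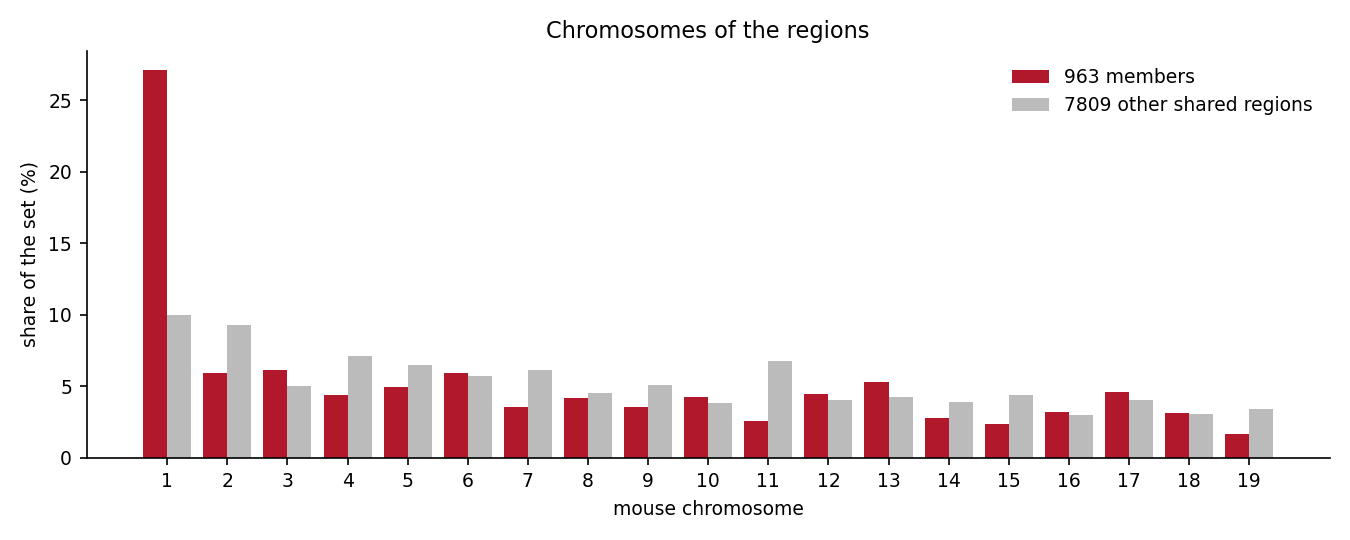
Share (%) of the 963 members (red) and the 7809 other shared regions (grey) on each mouse autosome. Chromosome 1 held 27.1% of the members and 9.99% of the other shared regions.

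The members were narrow, and most lay several kb from a peak of the libraries the rule left out. Their median width was 250 bp, against 1250 bp in the other shared regions, and they covered 0.4638 Mb in all. At 200 bp, the narrowest width in the lists, lay 286 members, 209 were at least 500 bp wide and 27 at least 2 kb. Just inside the rule, 12 members shared 50 bp with the second double library, while 822 shared at least 200 bp. A CSF3R or control peak lay within 1 kb of 68 members and within 5 kb of 386, and the median distance was 8700 bp. Just outside it, 425 shared regions were left out by 1 library alone, most often CSF3R library 3 (217 regions). The mirrored rule, peaks of both control libraries found in no double or CSF3R library, gave 99 regions. Joined across gaps of up to 5 kb, the members formed 909 loci.

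**Figure D2:**
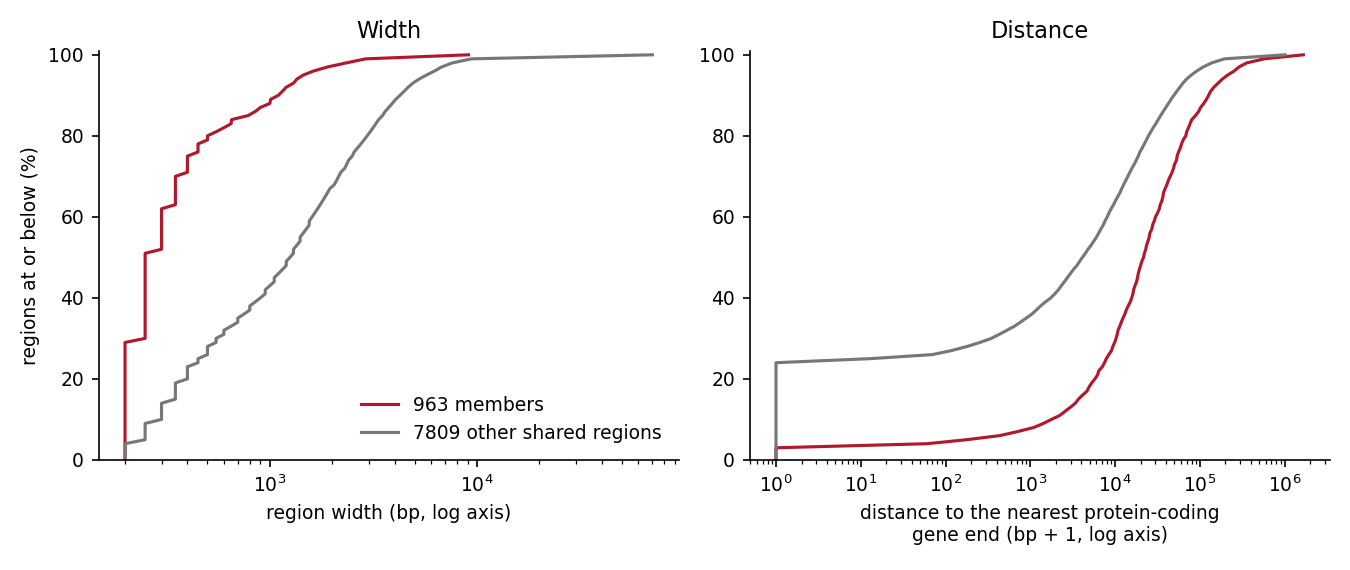
Cumulative share of regions (%) by width (left, bp, log axis) and by distance to the nearest protein-coding gene end (right, bp + 1, log axis) for the 963 members (red) and the 7809 other shared regions (grey). Members were narrower (median 250 against 1250 bp) and farther from gene ends (median 21735 against 4124 bp).

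Most members were also seen in a library with the Asxl1 guide alone, though mainly in the library with the longest peak list. The rule did not use these libraries. A peak of Asxl1 guide libraries 1, 2 and 3 overlapped 6.23%, 60.2% and 23.3% of the members, while the same libraries overlapped 49.9%, 94.9% and 73.6% of the other shared regions. At least 1 of the 3 overlapped 592 members (61.5%), all 3 overlapped 45 and none overlapped 371. Without library 2 the share was 24.8% of members. With all 3 libraries counted, the share in at least 1 was 79.7% on chromosome 1 and 54.7% elsewhere. Among the mirrored regions at least 1 guide library overlapped 83.8%, so a share of this size was also met by regions chosen in the control. Width moved with the share: it was 54.6% for members of 200 to 250 bp and 74.2% for those of 500 bp and over, against 85.0% and 97.3% of other shared regions of the same widths.

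**Figure D3:**
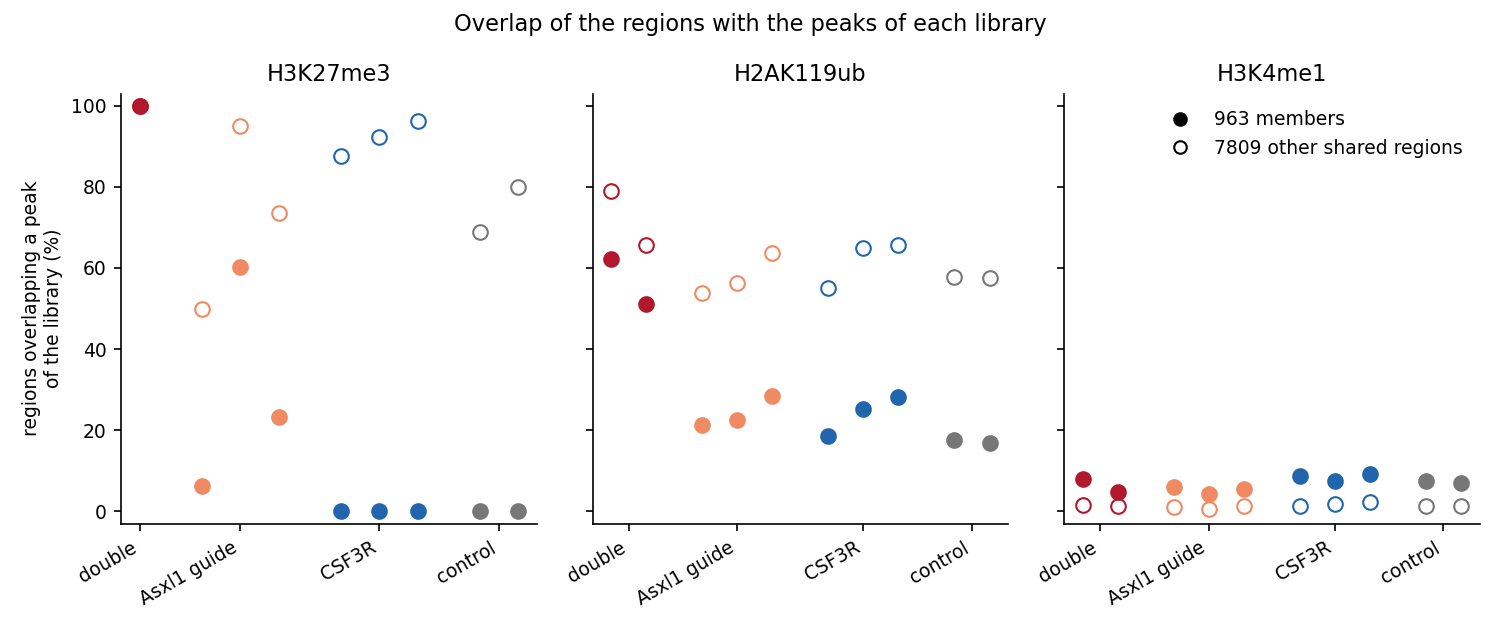
Share (%) of the 963 members (filled) and the 7809 other shared regions (open) that overlapped a peak of each library, by mark; each point is 1 library and the first double H3K27me3 library, which supplied the regions, is left out. The values for H3K27me3 in double, CSF3R and control cells follow from the rule; H2AK119ub peaks overlapped 51.2 and 62.3% of members in double cells and 16.8 to 28.6% in the other groups.

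IgG peaks overlapped a smaller share of members than of other shared regions when all widths were counted, and a larger share of members within each width class. The merged IgG list overlapped 94 members (9.76%, exact 95% interval 7.96 to 11.8%, counting error only), against 14.3% of the other shared regions. Among regions of 200 to 250 bp the shares were 5.04% of members and 4.26% of other shared regions, among those of 300 to 450 bp 9.69% and 5.12%, and among those of 500 bp and over 21.1% and 17.6%. On chromosome 1 the share was 15.3% of members, and 7.69% of members elsewhere.

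Members lay farther from gene ends than the other shared regions. Inside a protein-coding gene lay 449 members (46.6%), against 64.3% of the other shared regions. The median distance to a gene end was 21735 bp for members and 4124 bp for other shared regions, 175 members (18.2%) and 52.5% of other shared regions lay within 5 kb of one, and 27.5% and 9.92% lay more than 50 kb away. Part of this gap moved with width: of the regions of 200 to 250 bp, 17.3% of members and 31.9% of other shared regions lay within 5 kb. No gene of the 4 Hox clusters (39 genes), no developmental transcription factor (114 genes) and no myeloid or stem cell transcription factor (47 genes) had a member within 5 kb of an end. The other shared regions lay within 5 kb of 35 of the 39 Hox genes and 109 of the 114 developmental factors. Over all 20661 autosomal protein-coding genes, 175 (0.847%) had a member there; lists of these sizes hold few genes at that share, and the rule left out regions with a CSF3R or control peak, so nothing is read from these counts. Of 14 gene lists only Mmp8 (neutrophil genes), Kit (cytokine signalling and mast cell genes), Itgb3 (megakaryocyte and integrin genes), Robo4 (axon guidance), Kcnip1 (ion channels) and Ccnd2 (cyclins) did.

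In all, 427 genes had a member in them or within 5 kb, and 24 genes had at least 3. Mfsd6, which encodes a membrane transporter-like protein, had 7, Rps6kc1, Igf1r and Rgl1 had 6 each, Zfp516 had 5, and Cacna1e, Itgb3, Nos1ap and Xdh had 4 each. At Itgb3 and Zfp516 every shared region was a member (4 of 4 and 5 of 5), while at Rgl1 members were 6 of 29. Mfsd6, Rps6kc1, Rgl1, Cacna1e and Nos1ap are on chromosome 1. Members of 1 gene share its locus and are not independent of each other.

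H2AK119ub was measured in the same cells and did not enter the rule. Double libraries 1 and 2 had an H2AK119ub peak at 62.3% and 51.2% of members, against 21.2 to 28.6% in Asxl1 guide libraries, 18.7 to 28.1% in CSF3R libraries and 16.8 to 17.5% in control libraries. Among the other shared regions the shares were 65.6 and 78.8% in double libraries and 55.0 to 65.6% in CSF3R libraries. The fraction of each window, the region and 2 kb on each side, that lay in H2AK119ub peaks averaged 0.19 and 0.12 over the members in double libraries and 0.036 to 0.061 in the other 8. Both double libraries lay above all others. Their H2AK119ub lists were also long, with 33969 and 25715 peaks, against 10866 to 25860 in the other 8 libraries; the part of list length was not tested.

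These window fractions were tested with limma over all shared regions. A window entered if its fraction was at least 0.2 in at least 2 libraries, which kept 4640 windows, 231 of them members; 52 of those members passed through the double libraries alone and so had to differ, and another 48 reached 0.2 in 1 other library. Counts are therefore read over the 131 members that passed without the double libraries. Of these, 24 (18.3%) were higher in double than in CSF3R cells, against 4.22% of the 4033 windows of all shared regions that passed in that way. Off chromosome 1 it was 18 of 108 such members (16.7%), against 2.85% of all such windows. Against control cells 28 of the 131 were higher in double cells (21.4%), against 6.20% of all such windows. The effect of the guide was more positive with CSF3R T618I than without it at 4 of the 131 (limma interaction term). The share of all such windows was 0.446%, and 31 of the 131 were at an unadjusted p under 0.05.

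Double library 1 carried much of these counts. Without it 4 of the 131 members were higher in double than in CSF3R cells, 13 were higher than in control cells and the interaction was called at none; without double library 2 the counts were 30, 37 and 8. The count of 24 against CSF3R cells was 15 of 130 members with a value without CSF3R library 1 and 13 of 129 without CSF3R library 3. It was 15 of 107 without peaks that overlap an IgG peak and 6 of 127 with the peak alone as the window. When any overlap scored a window it was 1 of 71. Part of these drops is members that no longer had a value. The count of 28 against control cells was 13 and 9 without control libraries 1 and 2. Over all windows tested, members that had to differ included, 85 members were higher in double than in CSF3R cells. In that comparison 7.24% of all windows were higher and 0.582% lower. Against control cells 87 members were higher and 1 lower (9.14% and 0.647% of all windows). At 16 members the guide effect was more positive with CSF3R T618I (0.905%). Nothing is read from these last counts, and the lower window, at the kinase gene Mast4, passed through the control libraries alone. In bulk chromatin a mark in fewer cells and a weaker mark in all cells cannot be told apart. For the loci below, a difference with its p is given where the window passed without the group in which it was high, and values alone where it did not.

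The guide alone and CSF3R alone left few H2AK119ub calls over all windows, and few at the members. In Asxl1 guide against control cells 2 members were called (0.323% of all windows), of 27 at an unadjusted p under 0.05. The higher one lay 34350 bp from Rtl1, an imprinted retrotransposon-derived gene, with fractions of 1.0, 1.0 and 1.0 in guide and 0.31 and 0.51 in control libraries (limma adjusted p = 0.046). The lower one lay in Arhgap22, a RhoGAP gene, with 0.02, 0.04 and 0.05 in guide and 0.39 and 0.56 in control libraries (adjusted p = 0.046). Neither call held when any 1 guide or control library was left out, where adjusted p reached 0.24 for Rtl1 and 0.18 for Arhgap22. Without the peaks that overlap an IgG peak, limma called neither: Arhgap22 was at 0 in both control libraries and not tested, and the Rtl1 difference was -0.41 (adjusted p = 0.15). In CSF3R against control cells limma called 0 members (0.0647% of all windows), with 24 at an unadjusted p under 0.05.

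The widest member, 9100 bp at chr18:82905201-82914300, covered the left end of Zfp516, which encodes a zinc finger protein. H3K27me3 covered 0.69 and 0.50 of its window in double libraries, 0.00 to 0.02 in Asxl1 guide libraries and 0 in CSF3R and control libraries. H2AK119ub covered 0.62 and 0.53 in double, 0.04, 0.00 and 0.03 in Asxl1 guide, 0.00, 0.00 and 0.04 in CSF3R and 0.02 and 0.00 in control libraries. The double libraries lay above the others, and the window entered the fit through them alone.

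At Itgb3, the integrin beta 3 chain of platelets and megakaryocytes, both Polycomb marks were present in double cells. In the other 8 libraries an H3K4me1 domain began 0.55 to 1.6 kb inside the gene and ended at 8.75 to 8.95 kb. The first of the 4 members (chr11:104604501-104608750) spanned the left end of the gene and the others lay 3601, 6201 and 10601 bp inside it. Those at 3601 and 6201 bp lay within the H3K4me1 domain, and H3K4me1 peaks of both double libraries covered them too. The first lay mostly to the left of the domain and the last beyond its right end. None of the 4 members overlapped an H3K27me3 peak of any Asxl1 guide library. None lay within 25 kb of a CSF3R or control H3K27me3 peak. In the first window H2AK119ub covered 0.76 and 0.75 in double libraries, 0 in Asxl1 guide libraries, 0.07, 0.23 and 0.21 in CSF3R libraries and 0 in control libraries (difference from CSF3R 0.58, SE 0.060, adjusted p = 0.0016). In the window farthest inside the gene it covered 1.0 and 0.95 in double libraries and 0.02, 0.31 and 0.19 in CSF3R libraries, with 1 library other than double at 0.2. In the 2 windows between them H3K4me1 covered 0.42 and 0.27, and 0.34 and 0.19, in double libraries, against 1.0 in each of the other 8 libraries. These were the members with the smallest p for a loss of H3K4me1 in double against CSF3R cells (differences -0.66, SE 0.050, and -0.74, SE 0.051; adjusted p = 3.3e-05 for both), and the calls held without any single library. With the peak alone as the window the H3K4me1 difference was 0 at both. Of 4 platelet markers, Itgb3 among them, 4 and 3 had an H3K4me1 peak within 5 kb in double libraries, 2 in each Asxl1 guide library, 3, 2 and 3 in CSF3R libraries and 3 in each control library; their part in the result was not tested. H2AK119ub in the window 6201 bp inside the gene was 1.0 and 0.36 in double libraries and under 0.2 in the other 8.

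**Figure D4:**
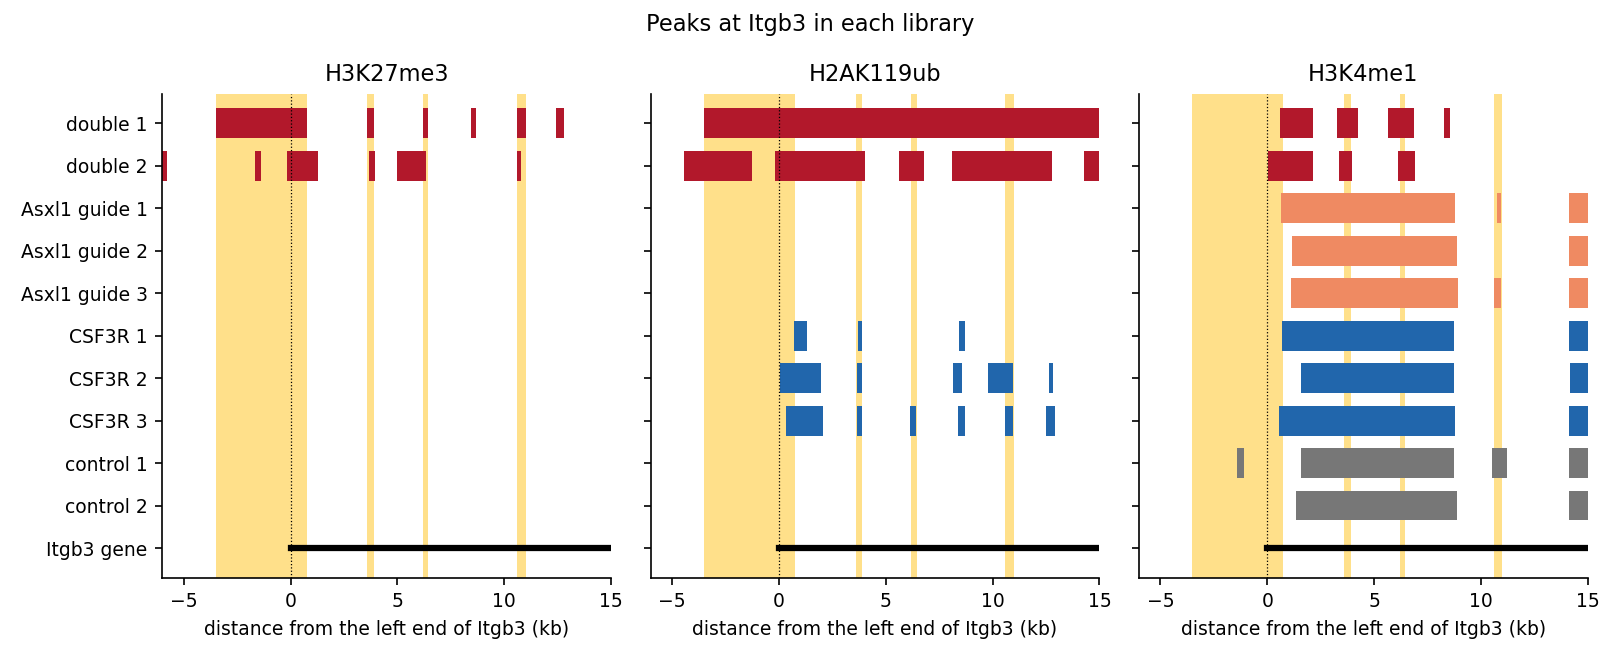
Peaks of each library (rows) around Itgb3 for the 3 marks, by distance (kb) from the left end of the gene (dotted line); yellow bands are the 4 members and the black bar is the gene within the view. In double cells H3K27me3 and H2AK119ub peaks lay over the region, and the H3K4me1 domain that was continuous in the other 8 libraries was present as separate pieces.

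Several other loci had more H2AK119ub in both double libraries than elsewhere. A member of 7000 bp at chr18:9485401-9492400, 35247 bp from Ccny, a cyclin Y gene, had H2AK119ub fractions of 0.82 and 0.83 in double libraries and at most 0.05 in the other 8. IgG peaks covered 2800 bp of that member, and Asxl1 guide library 2 covered 0.70 of its window with H3K27me3. A cluster near Rbm46, a germ cell RNA-binding protein gene, lay 23221 to 35771 bp from it between chr3:82800501 and 82813300. Its first window had 1.0 and 0.93 in double libraries and 0.06 to 0.07 in CSF3R libraries, with 0 in Asxl1 guide and control libraries. The window 27771 bp from the gene (chr3:82808401-82808750) had 1.0 in both double libraries, 0 in Asxl1 guide libraries, 0.23, 0.26 and 0.06 in CSF3R libraries and 0 in control libraries (difference from CSF3R 0.82, SE 0.068, limma adjusted p = 0.00057, and 0.10 with adjusted p = 0.67 with the peak alone as the window). Another window of the Rbm46 cluster had 0.79 and 0.77 in double libraries and 0.21, 0.49 and 0.07 in CSF3R libraries. Its difference from CSF3R was 0.52 (limma adjusted p = 0.020). That call was lost in 5 alternatives, among them without double library 1 and without CSF3R library 1. In a member inside Rnf144a, a ubiquitin ligase gene (chr12:26398601-26398900), H2AK119ub covered 0.76 and 0.93 in double libraries and at most 0.08 elsewhere. A member of 400 bp inside Igf1r, the insulin-like growth factor 1 receptor gene (chr7:67958051-67958450), had 0.66 and 0.53 in double libraries and 0 in the other 8. IgG peaks covered 200 bp of it. Without the H2AK119ub peaks that overlap an IgG peak, the window near Ccny held 0 in both double libraries and that in Igf1r 0.00 and 0.08.

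On chromosome 1, 3 wide members inside Mfsd6 (2500 to 4250 bp, between 52705901 and 52719450) had H2AK119ub in double cells alone or nearly so. The middle one had 0.64 and 0.41 in double libraries, 0.00, 0.00 and 0.04 in Asxl1 guide libraries and 0 in CSF3R and control libraries. The member at Nab1 (chr1:52499601-52503700), on the promoter printed above, carried both marks in guide libraries too. H3K27me3 covered 0.51 and 0.29 of its window in double libraries, 0.02, 0.56 and 0.15 in Asxl1 guide libraries and 0 in CSF3R and control libraries. H2AK119ub covered 0.59 and 0.31 in double libraries, 0.14, 0.12 and 0.34 in Asxl1 guide libraries and 0 in CSF3R and control libraries, so that guide library 3 overlapped the double libraries.

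Promoters inside members came from genes of varied function. In the RefSeq promoter table used here, 31 members covered the start site of a gene, 7 of them on chromosome 1 and 4 over an IgG peak. They are described after their values were seen. The table had no entry for Zfp516, Itgb3, Ccny or Ccnd2, so members at these genes could not be counted. Chromosome 18 was left out of start-site distances, which were taken for 933 of the 963 members. Of these 31, 13 overlapped no Asxl1 guide peak and 7 overlapped a peak of all 3 guide libraries. Over all 963 members the counts were 371 and 45. Their upstream windows held a median of 12 CpG per 250 bases, against 16 for 1803 promoters in the other shared regions. The median was 10 for all 20084 autosomal promoters in the table. At least 10 CpG were found in 61.3%, 75.3% and 51.3% of these sets. The list holds Dusp6, Spry1, Glcci1, Met (the hepatocyte growth factor receptor), Dab2 (an endocytic adaptor), Cldn1 (a tight junction protein), Plcb1 (a phospholipase C), Pigr (the polymeric immunoglobulin receptor), Rab32 and Mmp8, among others.

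Dusp6 and Spry1, which both restrain ERK signalling, had H3K27me3 in double cells alone. At Dusp6 (chr10:99263101-99264850) H3K27me3 covered 0.30 and 0.28 of the window in double libraries and 0 in the other 8. H2AK119ub there covered 0.86 and 0.45 in double, 0.27, 0.25 and 0.28 in Asxl1 guide, 0.30, 0.30 and 0.31 in CSF3R and 0.25 and 0.28 in control libraries. The double libraries lay above the others, but the difference from CSF3R cells did not pass (0.35, limma adjusted p = 0.073). At Spry1 (chr3:37639751-37641200) H3K27me3 covered 0.27 and 0.27 in double libraries and 0 in the other 8. H2AK119ub covered 0.37 and 0.35 in double, 0.06, 0.05 and 0.09 in Asxl1 guide, 0.16, 0.16 and 0.16 in CSF3R and 0.10 and 0.06 in control libraries. IgG peaks covered 250 bp of this member, and without the H2AK119ub peaks that overlap them the fractions were 0.11 and 0.10 in double and 0.16 in each CSF3R library.

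Of the 31 start-site members, 9 had an H2AK119ub window that passed without the double libraries, and 1 of these, Dab2, was higher in double than in CSF3R cells (4.22% of all such windows were). At Glcci1 (chr6:8509101-8511250), among the 2 most CpG-dense promoters above, H2AK119ub covered 0.57 and 0.28 in double libraries and 0 in the other 8. At Dab2 (chr15:6386501-6386800) it covered 0.66 and 0.56 in double, 0.00, 0.02 and 0.22 in Asxl1 guide, 0.00, 0.22 and 0.13 in CSF3R and 0.13 and 0.13 in control libraries (difference from CSF3R 0.49, adjusted p = 0.014), with adjusted p = 0.12 without double library 1. At Met (chr6:17463701-17464550) H2AK119ub was 0.49 and 0.44 in double and 0.47, 0.41 and 0.16 in CSF3R libraries, which overlap.

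Kit and Ccnd2 were the members nearest genes of the cytokine and cell cycle lists. The member of 200 bp at Kit (chr5:75575001-75575200), at the minimum width, lay just downstream of the promoter printed above. H2AK119ub covered 0.65 and 0.67 of its window in double, 0.00, 0.00 and 0.05 in Asxl1 guide, 0.27, 0.21 and 0.43 in CSF3R and 0.00 and 0.05 in control libraries. The difference from CSF3R cells was 0.35 (SE 0.070, adjusted p = 0.018), with adjusted p = 0.11 without double library 1, and it was also lost without CSF3R library 1. Without the H2AK119ub peaks that overlap an IgG peak the window held 0 in both double libraries and was not tested. Of 3 mast cell markers, 2 had an H3K4me1 peak within 5 kb in each double library, 1 in each Asxl1 guide and CSF3R library and 2 and 1 in control libraries; their part was not tested. At Ccnd2, the cyclin D2 gene, the member (chr6:127147751-127148050) lay 4138 bp inside the gene and 1000 bp from a CSF3R H3K27me3 peak. H3K27me3 covered 0.29 and 0.53 of the window in double libraries, 0 in Asxl1 guide libraries, 0.12, 0.23 and 0.16 in CSF3R libraries and 0 in control libraries. H2AK119ub covered 0.78 and 0.55 in double, 0.00, 0.00 and 0.08 in Asxl1 guide, 0.16, 0.16 and 0.14 in CSF3R and 0 in control libraries.

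**Figure D5:**
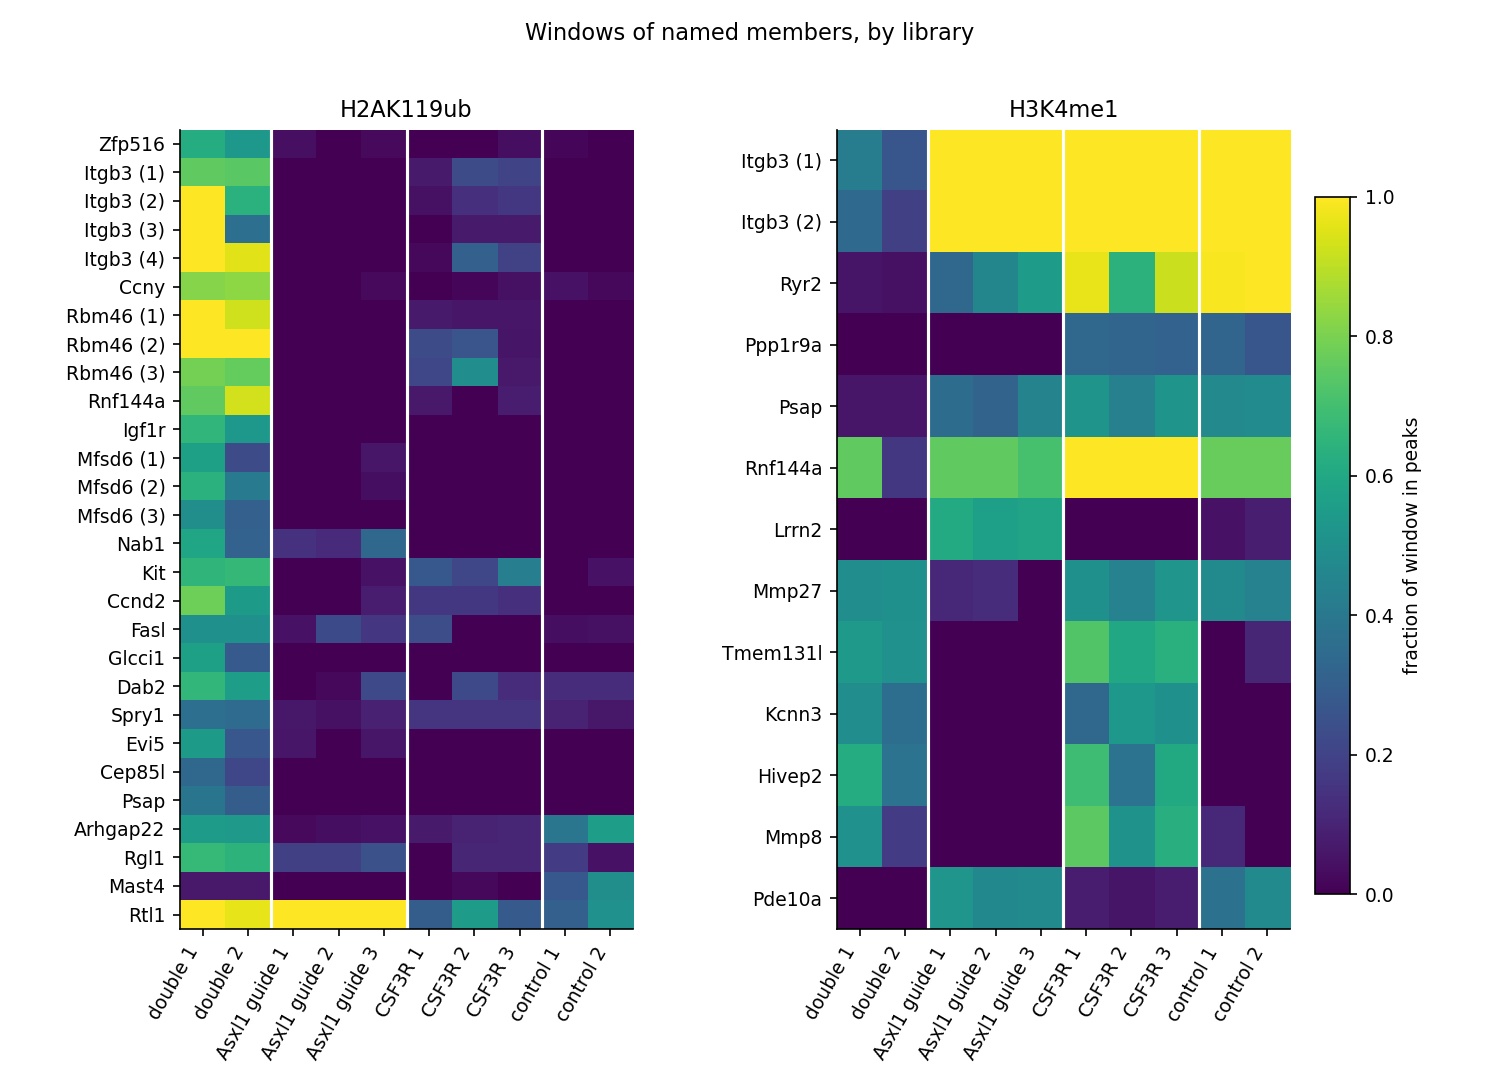
Fraction of the window (region and 2 kb on each side) in peaks of H2AK119ub (left) and H3K4me1 (right) for named members (rows, nearest gene; numbers in parentheses tell members of a gene apart) in each library (columns, white lines between groups). H2AK119ub was high in both double libraries at most rows shown, which were chosen partly by these values, and H3K4me1 differed between groups in several patterns.

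H3K4me1 peaks were few at the members in every library, at 4.36 to 9.14% of them. In double against CSF3R cells 22 of 69 tested members were lower (31.9%), where 29.3% of all 191 windows were lower and 3.66% higher. The 69 include members that did not reach the minimum without 1 of the groups, so nothing is read from that count. Of the 50 members that passed with any 1 group left out, 20 were lower and 0 higher. Of all such windows 32.2% were lower and 0% higher. Against control cells 5 of the 69 members were higher and 25 lower, where 14.1% and 28.3% of all windows were. Of the 50, 4 were higher and 21 lower, where 12.7% and 37.3% of all such windows were. At Ryr2, the cardiac ryanodine receptor gene (chr13:12038651-12039000), double libraries had 0.06 and 0.05, Asxl1 guide libraries 0.33, 0.46 and 0.55, CSF3R libraries 0.97, 0.64 and 0.92 and control libraries 0.99 and 1.0 (difference from CSF3R -0.79, SE 0.098, adjusted p = 0.00029). At Ppp1r9a, a neurabin gene (chr6:4973351-4973650), all 5 libraries with the guide had 0, against 0.31 to 0.34 in CSF3R and 0.27 to 0.33 in control libraries. It was lower in double against CSF3R cells (adjusted p = 0.00029) and in Asxl1 guide against control cells (adjusted p = 0.0031).

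Of 69 tested members, 1 was higher and 8 lower for H3K4me1 in Asxl1 guide against control cells, where 0.524% and 7.85% of all windows were. The higher one, 45355 bp from Lrrn2, a neuronal adhesion gene (chr1:132833701-132835000), had 0 in double, 0.61, 0.57 and 0.58 in Asxl1 guide, 0 in CSF3R and 0.05 and 0.08 in control libraries, and entered the fit through the Asxl1 guide libraries alone. Without the H3K4me1 peaks that overlap an IgG peak this window held 0 in all Asxl1 guide libraries. Of the 50 members that passed with any 1 group left out, 0 were higher and 6 lower. Of all such windows 0% and 10.2% were. Over all 69 members, the guide's effect on H3K4me1 differed with CSF3R T618I at 9. It was more positive at 2 and more negative at 7, where 3.14% and 9.95% of all windows were.

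CSF3R against control cells gave 9 higher and 11 lower of the 69 members for H3K4me1, against 17.8% and 9.95% of all windows. Of the 50 that passed with any 1 group left out, 5 were higher and 8 lower, against 12.7% and 10.2% of all such windows. At Mmp8 (chr9:7557201-7558550), on the CpG-poor promoter printed above, H3K4me1 covered 0.50 and 0.18 in double, 0 in Asxl1 guide, 0.75, 0.51 and 0.63 in CSF3R and 0.11 and 0.00 in control libraries. The member near Tmem131l (chr3:83885151-83885400) had 0.54 and 0.51 in double, 0 in Asxl1 guide, 0.73, 0.60 and 0.64 in CSF3R and 0.00 and 0.11 in control libraries (CSF3R against control 0.60, SE 0.054, adjusted p = 8e-05). Members in Kcnn3, a potassium channel gene, and near Hivep2, a zinc finger gene, had H3K4me1 in every double and CSF3R library and in no Asxl1 guide or control library (CSF3R against control adjusted p = 0.0014 and 0.003).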

How the data were processed

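CUT&Tag peaks of H3K27me3, H2AK119ub and H3K4me1 were compared among 4 groups of 2 or 3 libraries, with 1 merged IgG list. The deposited files list peak positions in bp on mm10, a unit other than counts or signal, since no height or score is given. Reads were aligned with Bowtie2 2.4.1 and handled with deepTools 3.5, per the submitters' processing notes; which program called peaks, and at what threshold, is not given in the sources used here. Sequencing depth is unknown, so a longer list can come from deeper sequencing, and intervals over regions cover counting only. Genes and promoters were RefSeq's for GRCm38.p6, and gene ends were used since the gene table has no strand. The fraction of each window in peaks was fitted with limma 3.58.1 in R 4.3.3 over all windows that passed the filter, with 1 mean per group, 2-sided tests, Benjamini-Hochberg adjustment over all windows and calls at an adjusted p under 0.05. The fit was also run on simulated normal values, which lack the bounds and the many zeros of these fractions, so no conclusion is drawn from that run. Regions were named for their nearest gene by set rules: the 10 widest, genes with at least 3 members, those in all 3 guide libraries, the strongest calls per comparison, members near listed genes, and 4 genes in every case; start-site genes were added after their values were seen. A region that these rules named is not reported here. The members and lists were chosen with earlier results of these data known. Alternatives varied overlap, window, filter, IgG peaks and libraries.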

Additional observations from a re-analysis of the deposited data

Results flagged for a closer look

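The results below were set aside because the effect of the Asxl1 guide differed with and without CSF3R T618I, tested as an interaction (double minus CSF3R, against Asxl1 guide minus control) with limma over all windows of a mark. A window was used if it reached the minimum in 2 libraries with any 1 group left out. For H2AK119ub 4 of 110 such members passed, against 0.490% of all such windows. Each had a more positive guide effect in the presence of CSF3R T618I. At Arhgap22 the guide effect changed sign, from -0.44 against control cells to 0.45 against CSF3R cells. Without double library 1 no member passed. The adjusted p was 0.0205 at the Itgb3 member over the gene's left end, 0.00753 at the member 27771 bp from Rbm46 and 0.00379 at Arhgap22.

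For H3K4me1 7 of 50 such members passed, 1 with a more positive and 6 with a more negative guide effect in the presence of CSF3R T618I, where 0.847% and 9.32% of all such windows did. The adjusted p was 0.000442 at each of the Itgb3 members 3601 and 6201 bp inside the gene. Near Psap, a lysosomal saposin gene (chr10:60252701-60252950), it was 0.0182, with H3K4me1 fractions of 0.06 and 0.06 in double, 0.35, 0.32 and 0.45 in Asxl1 guide, 0.52, 0.44 and 0.52 in CSF3R and 0.47 and 0.48 in control libraries. Near Mmp27, a matrix metalloproteinase gene (chr9:7595351-7595650), it was 0.00947, with 0.49 and 0.50 in double, 0.12, 0.13 and 0.00 in Asxl1 guide, 0.50, 0.44 and 0.52 in CSF3R and 0.48 and 0.44 in control libraries. Without peaks that overlap IgG peaks, the H2AK119ub window in Arhgap22 and the H3K4me1 window near Psap fell below the filter, so their interaction was not tested.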

How the results depend on the processing

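Of 197 alternative values of the 14 counts and shares, 120 stayed within the 95% binomial interval of a share or within 1.5 times a count. The number of members was 580 with no CSF3R or control peak within 5 kb and 209 at 500 bp or wider, and 982 to 6664 with 1 library left out. The share in Asxl1 guide libraries was 55.8% when at least 50% of the member had to be covered, 74.2% at 500 bp or wider, 54.7% without chromosome 1 and 24.8 to 61.5% with 1 guide library left out. The IgG share was 5.40% at 50% covered, 21.1% at 500 bp or wider and 7.69% without chromosome 1. The share near gene ends was 10.4% at 2 kb and 33.6% with all annotated genes.

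These counts include members that had to differ. For H2AK119ub, double against CSF3R, 134 members were called with the peak alone as the window, 16 with any overlap, 56 without peaks overlapping IgG, 24 among members at the minimum in 2 other libraries, 40 with the replicate block (12 among such members) and 8 to 76 with 1 library left out. In the same order double against control gave 148, 29, 55, 29, 56 and 18 to 82. Asxl1 guide against control gave 19 with the peak alone, 1 with no filter, 11 with any overlap, 0 without IgG-overlapping peaks, 0 with the replicate block and 0 to 1 with 1 library left out. CSF3R against control gave 20 with the peak alone, 2 with the 5 kb flank, 2 with no filter, 13 with any overlap and 0 to 1 with 1 library left out. The interaction gave 110 with the peak alone, 31 with no filter, 8 without IgG-overlapping peaks, 4 with the replicate block and 0 to 17 with 1 library left out. For H3K4me1, double against CSF3R gave 14 with the peak alone, 41 with the 5 kb flank, 10 without IgG-overlapping peaks and 13 to 25 with 1 library left out. Double against control gave 20 to 32 with 1 library left out. Asxl1 guide against control gave 4 with the peak alone, 1 with any overlap and 4 to 12 with 1 library left out. CSF3R against control gave 7 with any overlap and 9 to 21 with 1 library left out, and the interaction gave 15 with the 5 kb flank and 7 to 16 with 1 library left out.

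Over 22 named calls, 273 of 339 alternatives kept the call, 65 lost it and 1 changed its direction: Rtl1, Asxl1 guide against control, was -0.41 without IgG-overlapping H2AK119ub peaks. Any overlap lost 9 of the 13 it could test, the peak alone 16 of 22 and the replicate block 4 of 22. Without peaks that overlap IgG peaks, 7 of 28 named H2AK119ub windows (Ccny, Igf1r, Kit, Spry1, Psap, Arhgap22 and Mast4) and 2 of 13 for H3K4me1 (Psap and Lrrn2) fell below the filter and had no test. Deviations of same-numbered libraries correlated at -0.07 to 0.06 for H2AK119ub and -0.20 to 0.21 for H3K4me1, where both pairs of double and CSF3R libraries were positive (0.20 and 0.21); with 2 such pairs the numbers were not used as pairs. Values without chromosome 1, or with the minimum in other libraries, and the interaction were added after seeing the data. The cause of these changes was not tested.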
